A study of Mus musculus with 4 samples.

Results

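The genes described here are 10 negative regulators of mitogen-activated protein (MAP) kinase signalling, namely the MAP kinase phosphatases Dusp1, Dusp2, Dusp4, Dusp5, Dusp6, Dusp10 and Dusp16 and the inhibitors Spry2, Spry4 and Spred1. They were taken by symbol from a count table of 50600 genes from mouse colonic epithelium, and all 10 were in the table. All 10 also passed the filter on low counts, which left 14861 genes for the test. The set was chosen by the lower level of Dusp1 in the knockout and by membership of its regulatory families, so the knockout against wild-type differences of the members are a description. Where calls or p-values of the fit over all genes are printed for members, they use the contrast that chose the set and support nothing.

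MAP kinase cascades carry signals from growth factor receptors, cytokines and stress to transcription. The kinases ERK, JNK and p38 are active only while both the threonine and the tyrosine of their activation loop are phosphorylated, and dual-specificity phosphatases (the Dusp genes) remove both phosphates. Many of these phosphatase genes are themselves switched on by the kinases they turn off, as are the Sprouty genes (Spry) and in part the Spred genes, whose products act higher up, between the receptor and the kinase RAF. In the intestinal epithelium ERK signalling downstream of the EGF receptor is known for its part in crypt proliferation and repair.

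RNA was sequenced from epithelial cells isolated from the colon of C57BL/6 mice (primary cells, not a cell line), in 2 Mettl14 knockout (KO) and 2 wild-type (WT) libraries. METTL14 is a subunit of the methyltransferase that places N6-methyladenosine (m6A) on mRNA. The labels used here give neither the driver of the deletion nor the age, sex or number of animals behind a library. Since the libraries of each genotype differed in sex, as given below, they came from different mice, and the spread behind every p-value holds sex along with any other difference between them. All sample titles share a further code whose meaning is not stated.

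Total counts were 22730188 and 22780451 in the KO libraries and 22136440 and 24991060 in the WT libraries. Mettl14 was at 3.99 and 3.94 CPM (counts scaled to library size with TMM factors) in the KO libraries, against 11.7 and 8.67 CPM in the WT libraries, which do not overlap. Its log2 fold change was -1.36 (SE 0.22, edgeR adjusted p = 0.0504), and reads may come from exons outside the deleted part. Read from Xist and Y-linked transcripts, KO replicate 1 and WT replicate 2 were female, and KO replicate 2 and WT replicate 1 were male. All 11 epithelial markers were expressed, at a sum of 8781 and 7853 CPM in the KO libraries and 9569 and 11640 CPM in the WT libraries. For 6 of them the KO libraries lay below the WT ones without overlap, for 1 (Cdx1) above, and the others overlapped. Among all tested genes 32.2% lay below and 31.1% above. Markers of other cell types were present as well. The 12 macrophage and monocyte markers summed to 261.9 and 221.1 CPM in KO and 92.6 and 151.8 CPM in WT, 9 of them higher in both KO libraries. The 9 neutrophil markers summed to 141.7 and 100.8 CPM in KO and 43.2 and 149.6 CPM in WT, with Camp at 0 in 3 libraries. Most of this was Ly6g, and the other 8 summed to 51.6 and 13.8 CPM in KO and 5.01 and 21.1 CPM in WT. Fibroblast markers, 8 in all, summed to 113.5 and 620.4 CPM in KO and 80.8 and 109.9 CPM in WT. The 6 erythroid markers were the largest sum outside the epithelium, at 1353 and 6682 CPM in KO and 1977 and 2737 CPM in WT, with KO replicate 2 far above the rest. Endothelial markers summed to 15.2 and 15.8 CPM in KO and 6.46 and 9.59 CPM in WT, smooth muscle markers to 11.6 and 24.7 CPM in KO and 7.08 and 9.59 CPM in WT, and enteric glia and neuron markers to 49.8 and 21.1 CPM in KO and 28.7 and 39.4 CPM in WT. In such bulk samples fewer cells of a type and less RNA per cell cannot be told apart.

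Promoter sequences are shown for Dusp1 and Dusp5, the most abundant members, because they carry intact recognition sequences of transcription factors known for stimulus-driven induction. Both are from RefSeq (GRCm38.p6) and run over the 250 bases before the annotated start, 5′ to 3′ on the strand of the gene. For Dusp1 (chr17:26508473-26508722, minus strand) the capitals mark the cAMP response element TGACGTCA, the site of CREB and related factors. For Dusp5 (chr19:53528895-53529144, plus strand) they mark a pair of adjacent CArG boxes, the site of serum response factor.
Dusp1: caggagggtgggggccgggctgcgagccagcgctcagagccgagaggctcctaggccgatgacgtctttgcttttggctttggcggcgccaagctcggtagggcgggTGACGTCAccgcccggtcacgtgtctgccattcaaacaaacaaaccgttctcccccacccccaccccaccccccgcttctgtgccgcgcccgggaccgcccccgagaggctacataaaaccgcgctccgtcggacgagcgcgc
Dusp5: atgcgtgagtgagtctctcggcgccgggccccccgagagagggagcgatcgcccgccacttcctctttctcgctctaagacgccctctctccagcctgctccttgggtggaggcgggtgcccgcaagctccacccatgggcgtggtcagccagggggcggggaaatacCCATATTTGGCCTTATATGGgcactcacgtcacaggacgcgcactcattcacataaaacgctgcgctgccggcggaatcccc

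The element in Dusp1 lies 143 to 136 bases before the start, and the CArG boxes in Dusp5 at 82 to 73 and 72 to 63 bases before it. Both strands were searched. TGACGTCA was in 1.55% of 32851 promoter windows of the same length and a CArG box in 1.47%. RefSeq windows were matched for 8 members, all but Dusp4 and Spry4. Of these 8, 1 held TGACGTCA (Dusp1) and 1 a CArG box (Dusp5). The shorter core TGACG, which is contained in TGACGTCA, was in 3 (Dusp1, Dusp5 and Dusp16), against 17.8% of all windows. The E-box CACGTG was in 2 (Dusp1 and Dusp2), against 6.02%. None of these 4 motifs was found in the windows of Dusp6, Dusp10, Spry2 and Spred1. A match is a description of the letters and not of binding.

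The motif GGACT, read with U for T in RNA, is a sequence that the METTL3-METTL14 complex is known to prefer, and in mRNA m6A is known to gather around the stop codon. No methylation was measured in these libraries, so the motif describes the transcripts only. In the transcript with the longest coding sequence, Spry2 held 3.35 GGACT per kb, Dusp6 2.86, Dusp4 2.19 and Dusp1 2.01, and these stood at percentiles 98.5, 97, 90.8 and 87.9 of the 13532 coding genes tested. The median over those genes was 1.06 per kb. Dusp10, Dusp16, Dusp5 and Spred1 stood at percentiles 50.8, 44.9, 34.5 and 26.2, and Spry4 at 14.3 (0.421 per kb). Dusp2 held none, as did 8.36% of the genes. The 3 members with a GGACT within 200 bases of the end of the coding sequence were Dusp4, Dusp6 and Dusp5. The share of all coding genes with a GGACT there was not computed. For each of the 3 the motif nearest to the end of the coding sequence is shown in capitals, with 8 bases on either side and T for U.
Dusp4: agctgttaGGACTcgtctctg
Dusp6: taccaggtGGACTccctgcag
Dusp5: ggctctcgGGACTgtatggaa

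In Dusp4 the motif starts 3 bases after the last coding base, so that its first G is the last base of the stop codon. It starts 18 bases before the last coding base in Dusp6 and 198 bases after it in Dusp5.

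Across the 10 members, Dusp1 was lower in KO, and Dusp4 and Spred1 were higher by values that lay outside the threshold of the test. Dusp5, Dusp6 and Spry2 stood lower in KO on average but varied as much between the WT libraries. Dusp16 was nearly level. In the edgeR fit over all genes, 1 member of 10 was called lower at an adjusted p under 0.05 (Dusp1), where 1.90% of all tested genes were, and 0 were called higher, where 1.72% were. Because the same contrast chose the set, nothing is read from this count. Dusp1 lay just inside the threshold, at an edgeR adjusted p of 0.0480, and the members nearest to it on the other side were Spred1 at 0.0581 and Dusp4 at 0.0727. At an unadjusted p under 0.05 there were 2 higher and 1 lower members by edgeR, and 30.5% of all tested genes. DESeq2 called 1 member higher (Dusp4) and 1 lower, and limma-voom 0 higher and 1 lower. Over all tested genes DESeq2 called 896 higher and 890 lower of 14101, and limma-voom 282 higher and 300 lower of 14861.

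**Figure D1:**
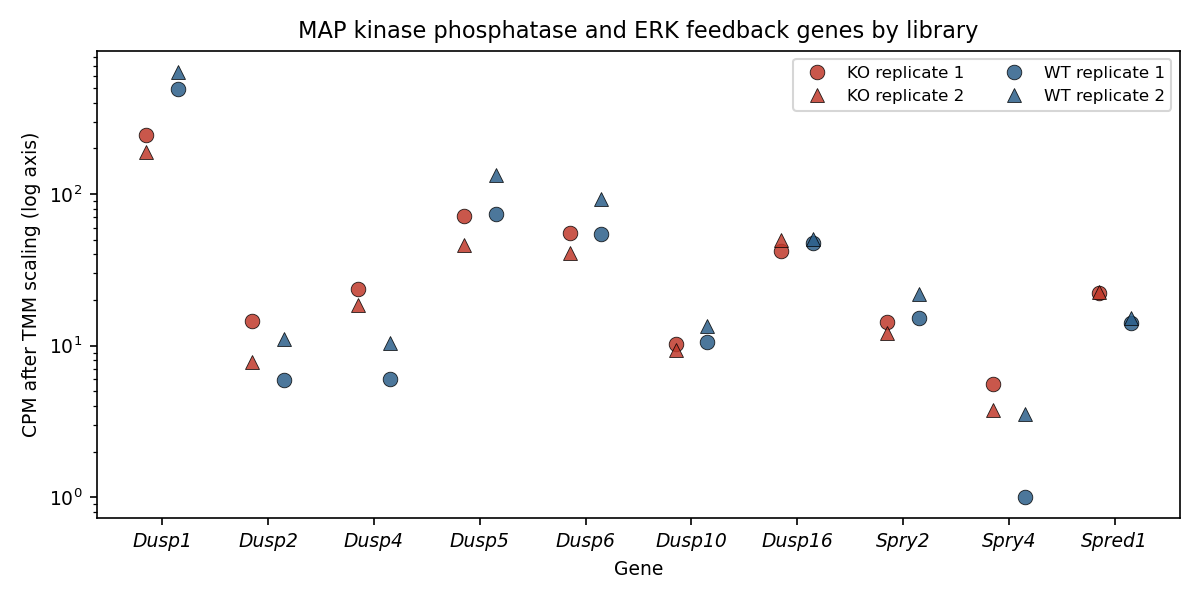
Level of each member in every library, in CPM after TMM scaling on a log axis, with KO left of WT and circles for replicate 1 and triangles for replicate 2. Dusp1 is the highest gene in each library and its KO points (243 and 190 CPM) lie below its WT points (491 and 637 CPM), while Dusp4 and Spred1 lie the other way round.

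The inducible phosphatases of the nucleus are Dusp1, Dusp2, Dusp4 and Dusp5. Dusp1, whose product acts on p38, JNK and ERK and is known as an early response gene that limits inflammatory signalling, lies on chromosome 17 (ENSMUSG00000024190, 26505590 to 26562128, GRCm38). This span is that of GENCODE and extends past the RefSeq start, so the promoter window shown above lies within it. Dusp1 had 5490 and 4870 counts (243 and 190 CPM) in KO, against 10185 and 15132 counts (491 and 637 CPM) in WT. Both KO libraries were below both WT libraries, and the gap between the genotypes was wider than that within either. Dusp1 averaged 217 ± 37.9 CPM in KO and 564 ± 103 CPM in WT (SD, n = 2 each), a log2 fold change of -1.38 (SE 0.21), or 2.60-fold lower in KO. The order of the libraries was that of the epithelial marker sum, as it was for 4 members in all (Dusp1, Dusp5, Dusp10 and Spry2) and for 7.91% of all tested genes, and the part of the epithelial share in these levels was not tested. Within the female libraries the log2 difference was -1.39 and within the male libraries -1.37. Its call ended with relative log expression factors (edgeR adjusted p = 0.0536), with mitochondrial genes left out (0.0544) and without KO replicate 1 (0.293) or KO replicate 2 (0.378), where edgeR called 0 genes in the whole table. At an unadjusted p under 0.05 there were 2257 genes without KO replicate 1 and 1987 without KO replicate 2.

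Dusp4 encodes an ERK and JNK phosphatase of the nucleus (ENSMUSG00000031530, chromosome 8, 34807297 to 34819894). It had 535 and 474 counts (23.7 and 18.5 CPM) in KO, against 126 and 248 counts (6.07 and 10.4 CPM) in WT. Both KO libraries were above both WT libraries, the opposite order to Dusp1. Its log2 fold change was 1.35 (SE 0.31), with 1.18 in the female and 1.60 in the male libraries. It was called higher with sex as a covariate (edgeR adjusted p = 0.0258), with libraries scaled to total counts alone (0.0447), without WT replicate 2 (0.0185) and by DESeq2 (0.00311), and over the 14 alternatives the adjusted p ran up to 0.378. The libraries stood in the order of the macrophage and monocyte marker sum, as they did for Spry4 and for 9.14% of all tested genes, and the part of those cells in the Dusp4 and Spry4 levels was not tested. The ratio of the Dusp1 to the Dusp4 level, per length of exon, was 8.49 and 8.50 in the KO libraries and 66.9 and 50.5 in the WT libraries. This pair was chosen for its contrast after the values were seen.

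Dusp5 encodes a nuclear phosphatase specific for ERK (ENSMUSG00000034765, chromosome 19, 53529109 to 53542431). It had 1616 and 1188 counts (71.7 and 46.3 CPM) in KO and 1538 and 3169 counts (74.1 and 133 CPM) in WT. The genotypes did not overlap, but KO replicate 1 and WT replicate 1 were almost level and WT replicate 2 stood apart, 1.80-fold above WT replicate 1. The log2 fold change was -0.82 (SE 0.36), and it was -0.30 without WT replicate 2. With sex as a covariate, which sets KO against WT within each sex, Dusp5 was called lower (edgeR adjusted p = 0.03125), and over the 14 alternatives the adjusted p ran up to 0.614. An annotated antisense gene shares 547 exon bases with Dusp5, and since the strandedness of the counting is not given, reads from both cannot be told apart there.

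Dusp2 encodes a nuclear phosphatase known above all from activated immune cells. It was at 14.6 and 7.79 CPM in KO and 5.93 and 11.1 CPM in WT, so the genotypes overlapped, and the libraries of one genotype differed more than the genotype means. The log2 fold change was 0.39 (SE 0.44), and it was -0.14 without KO replicate 1. Its order of libraries, with KO replicate 1 and WT replicate 2 on top, was also that of the sum of the 11 immune and lymphocyte markers (151.7 and 114.9 CPM in KO, 101.5 and 138.9 CPM in WT). Ptprc alone gave 86.8 CPM of this sum in KO replicate 1, and Cd3e, Trac and Nkg7, among others, stood in other orders. The share of all tested genes in the order of Dusp2 was not computed, and the part of immune cells in the Dusp2 level was not tested. Summed, these 4 inducible phosphatases were at 353.4 and 262.3 CPM in KO and 576.8 and 791.7 CPM in WT. Without Dusp1 the sums were 110 and 72.6 CPM in KO and 86.1 and 154.9 CPM in WT and overlapped.

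Dusp6 is the member of the cytoplasmic class, whose enzymes act on ERK, and its transcript is widely used as a readout of ERK activity (ENSMUSG00000019960, chromosome 10, 99263231 to 99267489). It was at 55.6 and 40.8 CPM in KO and 54.7 and 92.6 CPM in WT. KO replicate 1 was slightly above WT replicate 1, so the genotypes overlapped, and WT replicate 2 was the highest by far. The log2 fold change was -0.61 (SE 0.30), and -0.15 without WT replicate 2. Dusp10 and Dusp16 encode phosphatases that act mainly on JNK and p38. Dusp10 was at 10.3 and 9.35 CPM in KO and 10.6 and 13.5 CPM in WT (log2 fold change -0.29, SE 0.18). Dusp16 was at 42.3 and 49.5 CPM in KO and 47.3 and 50.1 CPM in WT (-0.09, SE 0.12). Dusp10 did not overlap between the genotypes, though by a narrow margin, and Dusp16 did.

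Spry2 and Spry4 encode Sprouty proteins, which block receptor signalling to ERK. Spry2 was at 14.3 and 12.2 CPM in KO and 15.3 and 21.8 CPM in WT, lower in both KO libraries, with a log2 fold change of -0.48 (SE 0.22) and -0.17 without WT replicate 2. Spry4, the least abundant member, had 126 and 97 counts (5.59 and 3.78 CPM) in KO and 21 and 84 counts (1.01 and 3.54 CPM) in WT. Its KO libraries were above its WT libraries, but the WT libraries differed 3.49-fold and KO replicate 2 was close to WT replicate 2. The log2 fold change was 1.03 (SE 0.63), 2.24 without WT replicate 2 and 0.39 without WT replicate 1. Spred1 encodes a Sprouty-related protein that brings the RAS inhibitor neurofibromin to the membrane (ENSMUSG00000027351, chromosome 2, 117121374 to 117182279). It had 500 and 579 counts (22.2 and 22.6 CPM) in KO and 294 and 359 counts (14.2 and 15.1 CPM) in WT. The libraries of each genotype were close together and the genotypes were apart, with a log2 fold change of 0.61 (SE 0.12). Spred1 thus had a smaller fold change than Dusp4 and the tightest replicates of the 3 members that were higher in both KO libraries.

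**Figure D2:**
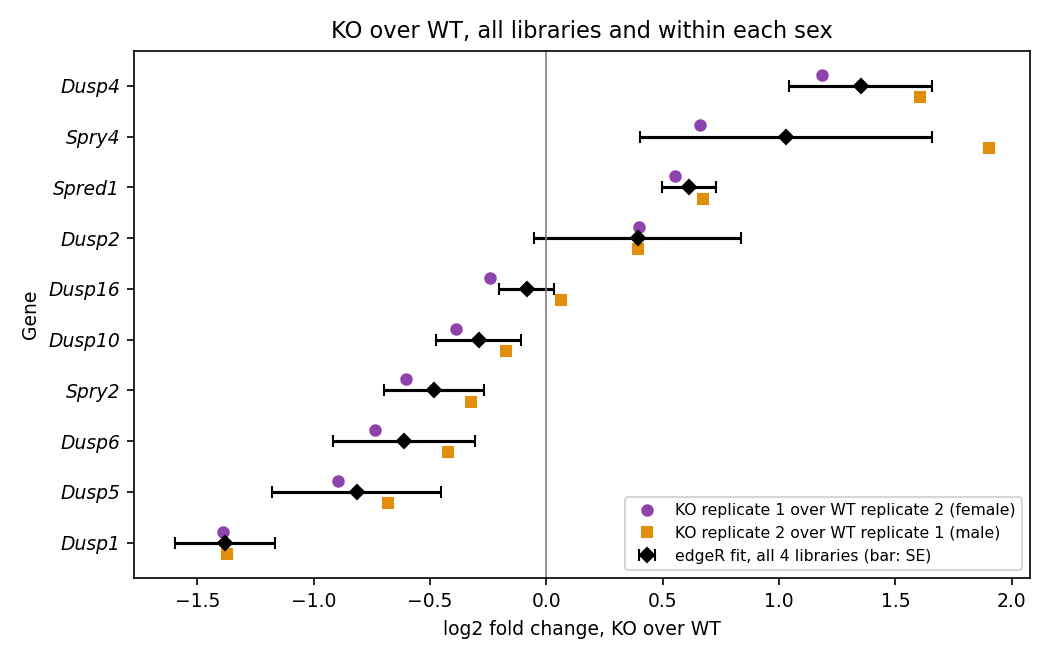
log2 fold change of KO over WT for each member, from the fit over all 4 libraries (diamonds, bars are SE) and as the single ratio within the female (circles) and male (squares) libraries. Of the 10 members, 9 have the same sign in both sexes, and Dusp16 lies at -0.24 in the female and 0.07 in the male libraries.

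In all, the KO libraries lay above the WT libraries without overlap for 3 members (Dusp4, Spry4 and Spred1) and for 31.1% of all tested genes. They lay below for another 4 (Dusp1, Dusp5, Dusp10 and Spry2) and for 32.2% of all tested genes, and 3 overlapped. The direction was the same in the female and the male libraries for 9 of 10 members, against 76.0% of all tested genes. The median log2 fold change was -0.19 over the members and -0.01 over all tested genes, and the median size of the change, regardless of sign, was 0.61 and 0.37.

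WT replicate 2 was above WT replicate 1 for all 10 members, where 48.8% of all tested genes were, and it was the highest library of all for 6 of them, against 23.0%. Most of the 28 transcription factors and targets linked to ERK, described below, also had WT replicate 2 above WT replicate 1. The order was therefore not particular to the members. The median difference between these libraries was 0.64 on the log2 scale over the members and -0.01 over all tested genes. KO replicate 1 was above KO replicate 2 for 8 members, against 49.4% of all tested genes. The female library of each genotype was therefore the higher one for most members, but with 1 library of each sex per genotype, sex and any other difference between the libraries cannot be told apart.

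**Figure D3:**
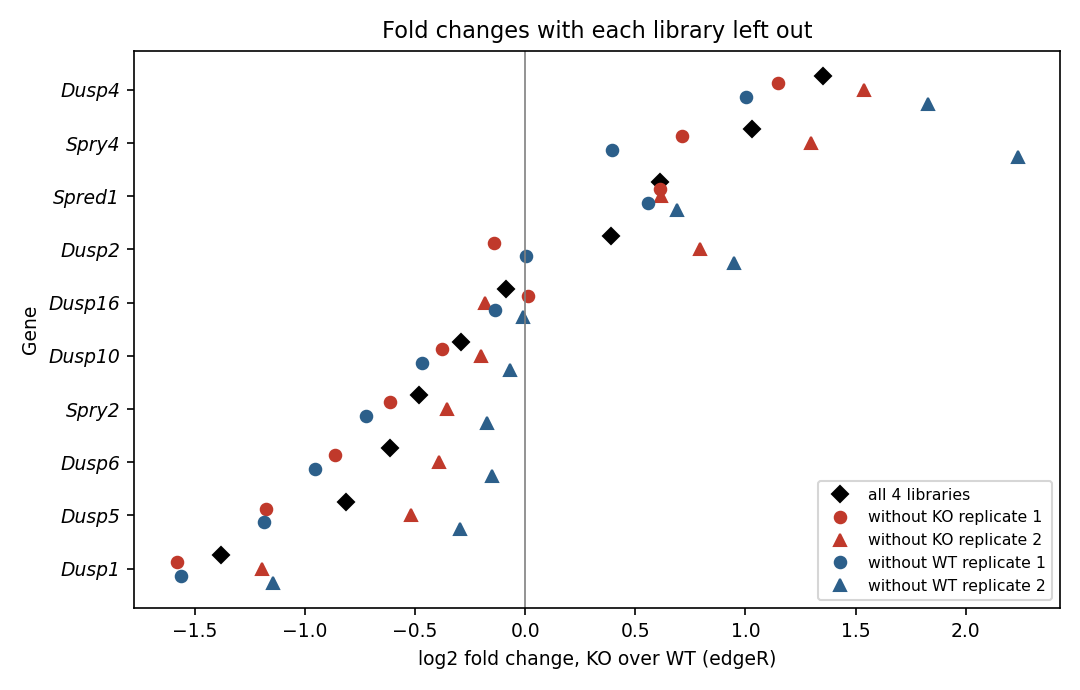
log2 fold change of KO over WT by edgeR with all 4 libraries (diamonds) and with each library left out (red for KO, blue for WT, circles for replicate 1 and triangles for replicate 2). Leaving out WT replicate 2 moves every member to the right, Dusp5 to -0.30 and Dusp6 to -0.15, while Dusp1 stays at -1.15 and Spred1 at 0.69.

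Per kilobase of exon (RPKM, on TMM-scaled libraries), Dusp1 was the most abundant member in both genotypes, at 65.4 ± 11.5 RPKM in KO and 170 ± 31.2 RPKM in WT (SD, n = 2 each). Dusp5 followed at 23.9 ± 7.25 RPKM in KO and 42.0 ± 17 RPKM in WT, and Dusp6 at 15.4 ± 3.32 RPKM in KO and 23.5 ± 8.56 RPKM in WT. These first 3 places were the same in both genotypes. With the union of exons as length, neighbouring members did not overlap there between libraries. With the longest transcript as length, Dusp5 (18.7 RPKM in KO replicate 2) and Dusp6 (19.9 RPKM in KO replicate 1) overlapped. They also overlapped in WT, with Dusp5 at 30.0 RPKM in replicate 1 and Dusp6 at 33.1 RPKM in replicate 2. Dusp4 was at 7.70 ± 1.36 RPKM in KO, where it took place 4 (place 5 with the longest transcript as length), and at 3.01 ± 1.13 RPKM in WT, where it took place 8. In KO the levels of Dusp4, Spry2 (6.35 RPKM), Dusp16 (5.89 RPKM) and Dusp2 (5.60 RPKM) each overlapped with the next of these, and so did Spred1 (3.30 RPKM) with Dusp10 (3.24 RPKM). In WT, Spry2 (8.87 RPKM) and Dusp16 (6.25 RPKM) did not overlap with their neighbours with the union of exons as length. With the longest transcript these members overlapped with each other and changed places. Dusp2, Dusp10, Dusp4 and Spred1, at 4.25 to 2.16 RPKM in WT, each overlapped with the next. Spry4 was the lowest in both, at 0.985 ± 0.269 RPKM in KO and 0.478 ± 0.375 RPKM in WT. Of the counts on the 10 members, Dusp1 took 48.3% and 47.4% in the KO libraries and 68.2% and 64.4% in the WT libraries.

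**Figure D4:**
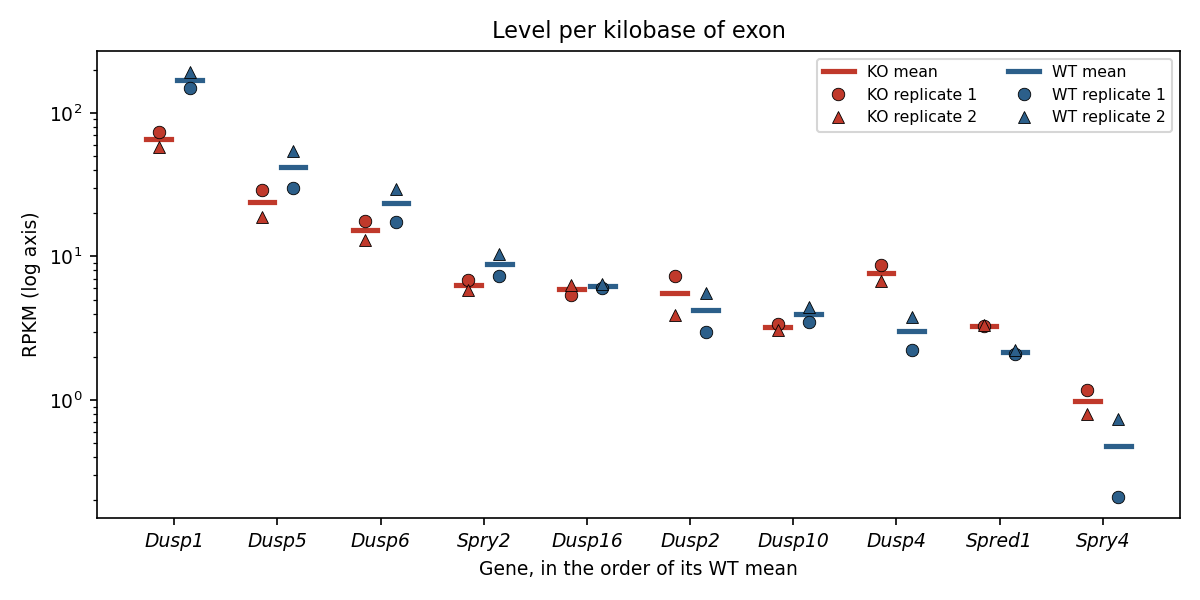
Level per kilobase of exon (RPKM, log axis) of each member in the order of its WT mean, with KO left of WT, points for libraries and bars for means of 2. Dusp4 is at place 8 by its WT mean (3.01 RPKM) and at place 4 by its KO mean (7.70 RPKM), and Dusp1 leads in both genotypes.

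The 5 genes whose profile over the 4 libraries was nearest to that of Dusp1, among 5662 with a mean of at least 20 CPM, were S100a13, Rasgef1b, Sema7a, Hbegf and Ppargc1a. Likeness was the root mean square difference of the centred log2 CPM over 4 libraries, and it was 0.04 for S100a13 and 0.11 for Ppargc1a. Hbegf encodes a ligand of the EGF receptor and was at 107.7 and 77.5 CPM in KO and 185.9 and 275.6 CPM in WT (log2 fold change -1.32, edgeR adjusted p = 0.0635). S100a13, Rasgef1b, Sema7a and Ppargc1a had log2 fold changes of -1.31, -1.37, -1.525 and -1.28. A gene with a profile near that of Dusp1 is lower in KO by the choice itself, so these values and the p support nothing. Among the members the nearest to Dusp1 was Dusp5 (0.35), followed by Dusp6 (0.42) and Spry2 (0.46), and the farthest were Dusp4 (1.39) and Spry4 (1.42).

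The rest of the family was looked at next. Of the remaining MAP kinase phosphatases edgeR called 0 of 3 (1 at an unadjusted p under 0.05), DESeq2 called 1 (Dusp7) and limma-voom 0. Dusp7, a cytoplasmic ERK phosphatase like Dusp6, was at 6.21 and 4.72 CPM in KO and 2.79 and 1.73 CPM in WT, above in both KO libraries (log2 fold change 1.27, SE 0.34, edgeR adjusted p = 0.0904). Dusp9, of the same class, was at 1.77 and 1.25 CPM in KO and 0.964 and 0.589 CPM in WT (0.96), and Dusp8, a JNK and p38 phosphatase, at 15.7 and 17.3 CPM in KO and 17.4 and 22.7 CPM in WT (-0.28, and -0.05 without WT replicate 2). Spry1, Spred2 and Spred3 overlapped between the genotypes and had log2 fold changes of 0.15, 0.08 and 0.36, with 0 calls by edgeR, DESeq2 or limma-voom and 0 at an unadjusted p under 0.05. Among 10 tested atypical dual-specificity phosphatases, which lack the kinase-binding domain of the MAP kinase phosphatases, edgeR called 0 (1 higher and 2 lower at an unadjusted p under 0.05), DESeq2 1 higher and 1 lower and limma-voom 0, and the median log2 fold change was -0.45 with 7 negative (-0.24 without WT replicate 1 and -0.27 without WT replicate 2). The most abundant were Dusp11, an RNA phosphatase, at 80.5 ± 2.28 CPM in KO and 82.1 ± 5.85 CPM in WT, and Dusp3 at 20.8 ± 0.132 CPM in KO and 33.4 ± 4.17 CPM in WT (log2 fold change -0.68, edgeR adjusted p = 0.0575).

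Over all 8 lists of the family and the surrounding pathway, those phosphatases included and members left out, 1 gene of 102 tested rose and 3 fell, where 1.72% of all tested genes rose and 1.90% fell. These counts of calls were close to the background. The KO libraries lay below the WT libraries without overlap for 50 of the 102 and above for 20. Over all tested genes these shares were 32.2% and 31.1%. At an unadjusted p under 0.05 by edgeR 29 were lower and 9 higher, against 30.5% of all tested genes in either direction. The median log2 fold change of the 102 was -0.16, against -0.01 over all tested genes. Errfi1 encodes MIG6, a feedback inhibitor that binds the EGF receptor, and it was the 1 called gene of 12 other ERK pathway inhibitors. It fell to 98.8 and 109 CPM in KO, against 200.7 and 208.9 CPM in WT, a log2 fold change of -0.98 (SE 0.12, edgeR adjusted p = 0.0434). Without either KO library none of these 4 genes was called, and scaling to total counts alone ended the calls of Errfi1 (edgeR adjusted p = 0.0517) and Mapkapk5 (0.0563). Errfi1 had closer replicates than Dusp1 at a smaller fold change. In the p38 and JNK cascade 1 of 18 tested genes fell, Mapkapk5, which encodes a kinase activated by p38, to 26.0 and 28.3 CPM in KO, against 53.7 and 47.6 CPM in WT (log2 fold change -0.90, edgeR adjusted p = 0.0437).

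The kinases and adaptors of the RAS-ERK cascade itself gave 0 calls of 20 by edgeR, with 15 negative log2 fold changes and a median of -0.19. DESeq2 called 1 lower and limma-voom 0. The most abundant were Mapk3, which encodes ERK1, at 203 ± 1.24 CPM in KO and 265 ± 12.3 CPM in WT (log2 fold change -0.39, edgeR adjusted p = 0.122), and Rps6ka1 (-0.13, edgeR adjusted p = 0.516). At an unadjusted p under 0.05, 9 genes of this cascade were lower and 0 higher by edgeR. With libraries scaled to their total counts alone the median of the cascade was -0.02, and that of all tested genes was 0.15 in place of -0.01. Of 10 tested EGF receptor family and ligand genes edgeR called 0 (1 higher and 5 lower at an unadjusted p under 0.05), DESeq2 4 lower and limma-voom 1 lower, and 7 were negative (median log2 fold change -0.49). The receptor Erbb2 was at 121.7 and 130.2 CPM in KO and 228.3 and 205.4 CPM in WT (log2 fold change -0.78, edgeR adjusted p = 0.0503, just outside the threshold). Erbb3 was at 248.6 and 224.3 CPM in KO and 345.9 and 370.8 CPM in WT (-0.60, edgeR adjusted p = 0.0711).

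Among 28 transcription factors and targets linked to ERK signalling, 1 rose and 1 fell, with 16 negative log2 fold changes and a median of -0.32. At an unadjusted p under 0.05 by edgeR 4 were higher and 7 lower, against 30.5% of all tested genes in either direction. The median log2 fold change of the 28 was 0.17 without WT replicate 2, -0.08 without KO replicate 2 and -0.56 without WT replicate 1. DESeq2 called 1 higher and 6 lower, limma-voom 1 of each, and edgeR with sex as a covariate 2 higher and 5 lower. Ccnd1, which encodes cyclin D1, rose to 60.5 and 57.8 CPM in KO, against 28.3 and 30.4 CPM in WT (log2 fold change 1.01, SE 0.10, edgeR adjusted p = 0.0434). Btg2, an antiproliferative early response gene, fell to 227.5 and 221.7 CPM in KO, against 456.5 and 576.5 CPM in WT (-1.20, SE 0.17, edgeR adjusted p = 0.0453), a call that ended with mitochondrial genes left out (0.0506).

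**Figure D5:**
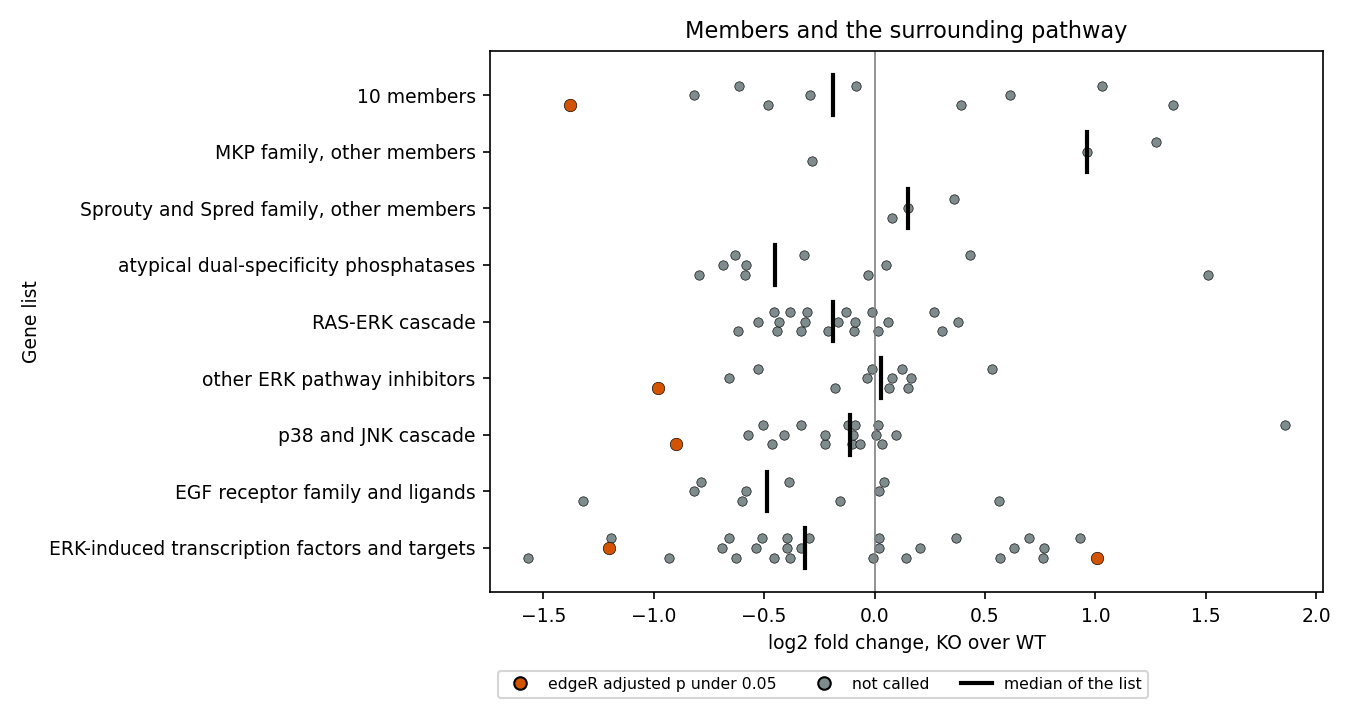
log2 fold change of KO over WT for every tested gene of the members and of 8 pathway lists, 1 point per gene, with orange for genes that edgeR called (adjusted p under 0.05) and a black line at the median of each list. The called genes are Dusp1 among the members, Errfi1 (-0.98), Mapkapk5 (-0.90), and Btg2 (-1.20) and Ccnd1 (1.01) in the list of ERK targets.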

How the data were processed

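The authors deposited one table of counts per gene, whole numbers that are not normalised, judged from the values. Per the submitters' processing notes, FastQC 0.11.2, STAR 2.4.2a and RSEM 1.2.29 were used with build mm10, while their roles, the annotation release and the strandedness were not given in those sources. Coordinates and exon lengths are from GENCODE M21 (GRCm38), which held 99.56% of the identifiers. Totals ran from 22136440 to 24991060 counts, and a count of 0 allows up to 3 counts (0.117 to 0.144 CPM, from counting error alone). Low genes were removed with filterByExpr, and the rest were scaled with TMM factors and tested with edgeR 4.0.16 (R 4.3.3, quasi-likelihood F-test, legacy and robust options, two-sided), KO against WT, with Benjamini-Hochberg adjustment over all tested genes at 0.05. The fit was tested on simulated data. It leaves 2 residual degrees of freedom, and an exact permutation test of 2 against 2 libraries cannot go below p = 0.333. RPKM used the union of exons. Replicates are numbered in accession order. No table column was left without a sample.

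The members and the 8 pathway and 9 marker lists were chosen with earlier results of these data known. Named genes are all members, up to 4 called genes of each pathway list by size of change, the 2 most abundant of a list without calls, every remaining family member, Mettl14 and the 5 genes nearest to Dusp1. The genes of the closing observations were chosen after their values were seen. Spry3 was not analysed here. Alternatives were other scaling factors, DESeq2 1.42.0, limma-voom 3.58.1, legacy off, other filters, mitochondrial genes left out, sex as a covariate and each library left out.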

Additional observations from a re-analysis of the deposited data

Results flagged for a closer look

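For 3 of the named genes KO was on opposite sides of WT in the female and the male libraries, and this difference was not tested, since each sex has 1 library per genotype. Dusp16 had a log2 difference of -0.2433 in the female and 0.06502 in the male libraries. Spry1 had 0.3627 and -0.06994, and Dusp11 had -0.1285 and 0.07497, female libraries first.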

How the results depend on the processing

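The labels give the groups no shared replicate numbers, so libraries were paired only by the sex read from the data, in the fit with sex as a covariate, which leaves 1 residual degree of freedom. In the whole table edgeR called 255 genes higher and 282 lower, against 416 higher with upper quartile factors, 604 and 186 with library size only, 896 and 890 with DESeq2, 862 and 770 without a filter, 163 lower with mitochondrial genes left out, and 696 and 713 with sex as a covariate. Leaving out 1 library gave 0 to 1271 higher and 0 to 1019 lower. Of calls, 47.5% were higher, 61.1% with upper quartile factors, 76.5% with library size only and 55.5% without WT replicate 2. Members called higher went from 0 to 1 with library size only, DESeq2, no filter and sex as a covariate, and members called lower from 1 to 0 with relative log expression (RLE) factors and without mitochondrial genes and to 2 with sex as a covariate (Dusp1 and Dusp5). With 1 library left out, 0 to 3 members were called higher and 0 to 1 lower. Among other pathway genes, 1 higher and 3 lower became 2 higher with upper quartile factors, 4 and 16 with DESeq2, 4 and 11 without a filter, 5 lower with a filter of 1 CPM in 2 libraries, 2 and 14 with sex as a covariate, and 0 to 6 higher and 0 to 11 lower with 1 library left out.

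Dusp1, whose lower level chose the set, ran from -1.58 to -1.15 over the 14 alternatives and was called under 10, which describes the value and supports nothing. Dusp4 gained a call under 4, Spred1 under 2 and Dusp5 and Spry4 under 1 each. The log2 fold change of Spred1 was 0.68 with upper quartile factors and 0.78 with library size only, and that of Dusp16 was 0.0877 with library size only, which moved the median of all genes by 0.17. Without 1 library the ranges were 1.0 to 1.83 for Dusp4, -0.95 to -0.15 for Dusp6, -0.47 to -0.068 for Dusp10, -0.73 to -0.17 for Spry2, 0.39 to 2.24 for Spry4 and 0.56 to 0.69 for Spred1. Signs turned for Dusp2 (-0.14) and Dusp16 (0.0107) without KO replicate 1, for Spry1 also without KO replicate 1 (range over the libraries left out -0.0095 to 0.308), for Spred3 and Dusp11 without WT replicate 2 (-0.042 to 0.952 and -0.11 to 0.079), for Dusp11 with upper quartile factors (0.043) and library size only (0.139), and for Rps6ka1 with library size only (0.032). With the longest transcript as length, 4 members took another place in KO and 2 in WT. The causes were not tested. With 1 library left in a group, that library is assumed to vary like the other group. The lowest counts were 14 for Dusp9 and 15 for Spred3, both in WT replicate 2, and among the members 21 for Spry4 in WT replicate 1.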

Other observations

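Dusp6 (-0.61) and Dusp7 (1.27), of the same substrate class, had log2 fold changes of opposite sign, neither of them called by edgeR. Dusp6 overlapped between the genotypes and was at -0.15 without WT replicate 2. This pair was chosen after the values were seen. Summed over the cytoplasmic ERK phosphatases (Dusp6, Dusp7 and Dusp9), the level was 63.5 and 46.8 CPM in KO and 58.4 and 94.9 CPM in WT, with Dusp6 making up most of it. The JNK and p38 phosphatases (Dusp8, Dusp10 and Dusp16) summed to 68.4 and 76.1 CPM in KO and 75.3 and 86.3 CPM in WT. The members of the Sprouty and Spred families (Spry2, Spry4 and Spred1) summed to 42.1 and 38.5 CPM in KO and 30.5 and 40.4 CPM in WT. All 3 sums overlapped between the genotypes.

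Among genes outside the naming rule, chosen after their values were seen, Dusp14, an atypical phosphatase, was at 4.83 and 6.39 CPM in KO and 1.45 and 2.48 CPM in WT (log2 fold change 1.51, edgeR adjusted p = 0.0767). Map2k2, which encodes the ERK kinase MEK2, was at 74.2 and 68.0 CPM in KO and 110 and 108.5 CPM in WT (-0.62, edgeR adjusted p = 0.0525). Ereg, Areg and Btc, ligands of the EGF receptor, had log2 fold changes of -0.58, 0.02 and -0.16, and of these Areg varied most between libraries, at 111.6 and 76.8 CPM in KO and 49.7 and 135.8 CPM in WT. Other ligands of this receptor had larger changes, with Hbegf at -1.32, Tgfa at -0.82 and Egf at 0.56, none of them called by edgeR. Of the 8 m6A writer genes edgeR called 0, with 3 higher and 2 lower at an unadjusted p under 0.05. At that level stood 30.5% of all tested genes, in either direction. The 2 lower were Mettl14, the targeted gene, and Mettl3 (log2 fold change -0.93, edgeR adjusted p = 0.0751). The 3 higher were Rbm15 (0.85), Cbll1 (0.42) and Virma (0.35).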
